A study of Mus musculus with 8 samples.

Results

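The genes described here are 10 members of the contractile program of smooth muscle and of the myofibroblasts of injured tissue: Acta2, Actg2, Myh11, Tagln, Cnn1, Myl9, Smtn, Lmod1, Mylk and Pdgfrb. They were read in total RNA of heart ventricles, 1 Affymetrix Mouse Genome 430 2.0 array per sample, from 8 male mice of the inbred FVB strain, 8 to 12 weeks old. Every mouse had been operated 1 week earlier, with a band narrowing the ascending aorta so that the left ventricle pumped against a higher pressure. Of these mice, 4 were labelled as carrying a transgene in which the mlc2v promoter, said to be specific to the myocardium, drives CHF1/Hey2, a repressor that acts downstream of Notch. The other 4 were wild type. Ventricles without a band were not analysed here, so all values describe banded hearts. Each gene was taken from the probe set annotated to that symbol alone with the highest mean over the 8 arrays. All 10 genes had such a probe set, among 18193 genes with 1 symbol, and 9 of the 10 lay above a log2 value of 5 in at least 4 arrays, as did 9604 genes in all. The exception was Lmod1.

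Smooth muscle contracts when calcium and calmodulin activate myosin light chain kinase (Mylk), which phosphorylates the regulatory light chain (Myl9) of smooth muscle myosin (Myh11). The myosin then pulls on filaments of smooth muscle actins (Acta2, Actg2) that carry calponin (Cnn1), transgelin (Tagln), smoothelin (Smtn) and leiomodin (Lmod1). In the heart these genes mark the muscle layer of coronary vessels. Fibroblasts that turn into myofibroblasts take up part of the set, Acta2 and Tagln above all, whereas Myh11 and Smtn are more restricted to smooth muscle, and Pdgfrb, a receptor for platelet-derived growth factor, marks pericytes and smooth muscle cells of vessel walls as well as some fibroblasts. Many of these genes are switched on by serum response factor with myocardin or its relatives at a short element called the CArG box, and Hey proteins have been described as holding back myocardin in cultured smooth muscle cells.

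Cnn1 and Myl9 are the members whose values varied most, and together, across these arrays, so the 250 bases before their annotated starts are shown, from RefSeq on GRCm38.p6, with a CArG box in capitals. The Myl9 stretch is chr2:156775214-156775463 on the + strand and the Cnn1 stretch is chr9:22099003-22099252 on the + strand.
Myl9: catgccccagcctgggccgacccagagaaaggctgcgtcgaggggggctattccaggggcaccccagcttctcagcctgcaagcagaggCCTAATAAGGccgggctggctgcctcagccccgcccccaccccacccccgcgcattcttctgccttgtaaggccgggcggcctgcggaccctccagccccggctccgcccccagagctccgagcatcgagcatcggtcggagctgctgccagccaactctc
Cnn1: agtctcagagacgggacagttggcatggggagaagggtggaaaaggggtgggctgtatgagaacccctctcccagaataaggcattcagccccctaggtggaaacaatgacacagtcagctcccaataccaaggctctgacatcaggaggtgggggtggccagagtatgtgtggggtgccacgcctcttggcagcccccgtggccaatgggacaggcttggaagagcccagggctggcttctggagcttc
The Myl9 stretch holds 1 full CArG box, CCTAATAAGG, from 161 to 152 bases before the start, and the Cnn1 stretch holds none. The CArG box reads as the same pattern on both strands, and 482 of 32851 windows of this length in the RefSeq table hold one (1.47%). Of the 6 members in that table, Acta2, Cnn1, Myl9, Smtn, Lmod1 and Mylk, 1 held a match. The remaining members are Actg2, Myh11, Tagln and Pdgfrb. A match describes the letters only, and its absence says only that they are not in this window.

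Hey2 itself, read by its single probe set, did not separate the groups. In arrays labelled transgenic its log2 values were 5.87, 5.70, 6.26 and 6.02, against 5.89, 5.96, 5.68 and 6.76 in wild type, with a difference of -0.11 (limma adjusted p = 0.883). The sources used here do not say if the construct holds the bases this probe set reads, so it could not serve as a check of the labels. Among the 9604 genes tested, transgenic replicate 2 put 3570 (37.2%) more than 2-fold away from the median of the remaining arrays and transgenic replicate 3 put 889 (9.26%) there, against 70 to 147 for each of the other 6 arrays. Values without these libraries stand beside the results that they change most. The 10 markers of ventricular myocytes were all above the filter, with a mean log2 level of 14.78 to 15.17 in arrays labelled transgenic and of 15.06 to 15.13 in wild type. Of the RNA quality controls, the 3′ minus 5′ log2 value of Gapdh was -0.27 in transgenic replicate 2 and -0.25 in replicate 3, within the wild-type range of -0.28 to -0.11. That of beta-actin was 0.62 in transgenic replicate 2, below the wild-type range of 0.78 to 1.21, and 1.02 in replicate 3.

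Setting both groups of banded ventricles side by side asked how CHF1/Hey2 in heart muscle cells bears on the ventricle under pressure load. The contractile genes showed no group difference larger than the spread between arrays. With 1 array per sample, differences between mice and between arrays cannot be told apart. Of the 9 members tested, 4 had a higher mean in arrays labelled transgenic (Acta2, Actg2, Smtn and Pdgfrb), where 57% of all genes tested did, and 5 a lower one (Myh11, Tagln, Cnn1, Myl9 and Mylk), where 43% did. Their median difference was -0.03 on the log2 scale, beside 0.06 over all genes tested. It was -0.12 without transgenic replicate 2, 0.20 without replicate 3 and -0.10 without both, so its sign rested on single arrays. No member passed limma with Benjamini-Hochberg adjustment over all genes at 0.05, and neither did any other of the 9604 genes (0%). An unadjusted limma p under 0.05 was reached by 0 members, and by 1.22% of all genes on the higher and 0.375% on the lower side. The adjusted p of the 9 members lay between 0.813 and 0.981. In 0 members did the groups stand apart. Of all genes, 2% had all 4 arrays labelled transgenic above and 0.479% all 4 below the wild-type arrays. At shares this low, a count of 0 among 9 members does not set them apart from other genes. The labels do not say more of how the mice were matched. Each p-value sets a group difference against the spread between these samples, transgenic replicates 2 and 3 included. The tissue is a mixture of cells, so fewer cells of a type and less RNA per cell cannot be told apart in any value given here.

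**Figure D1:**
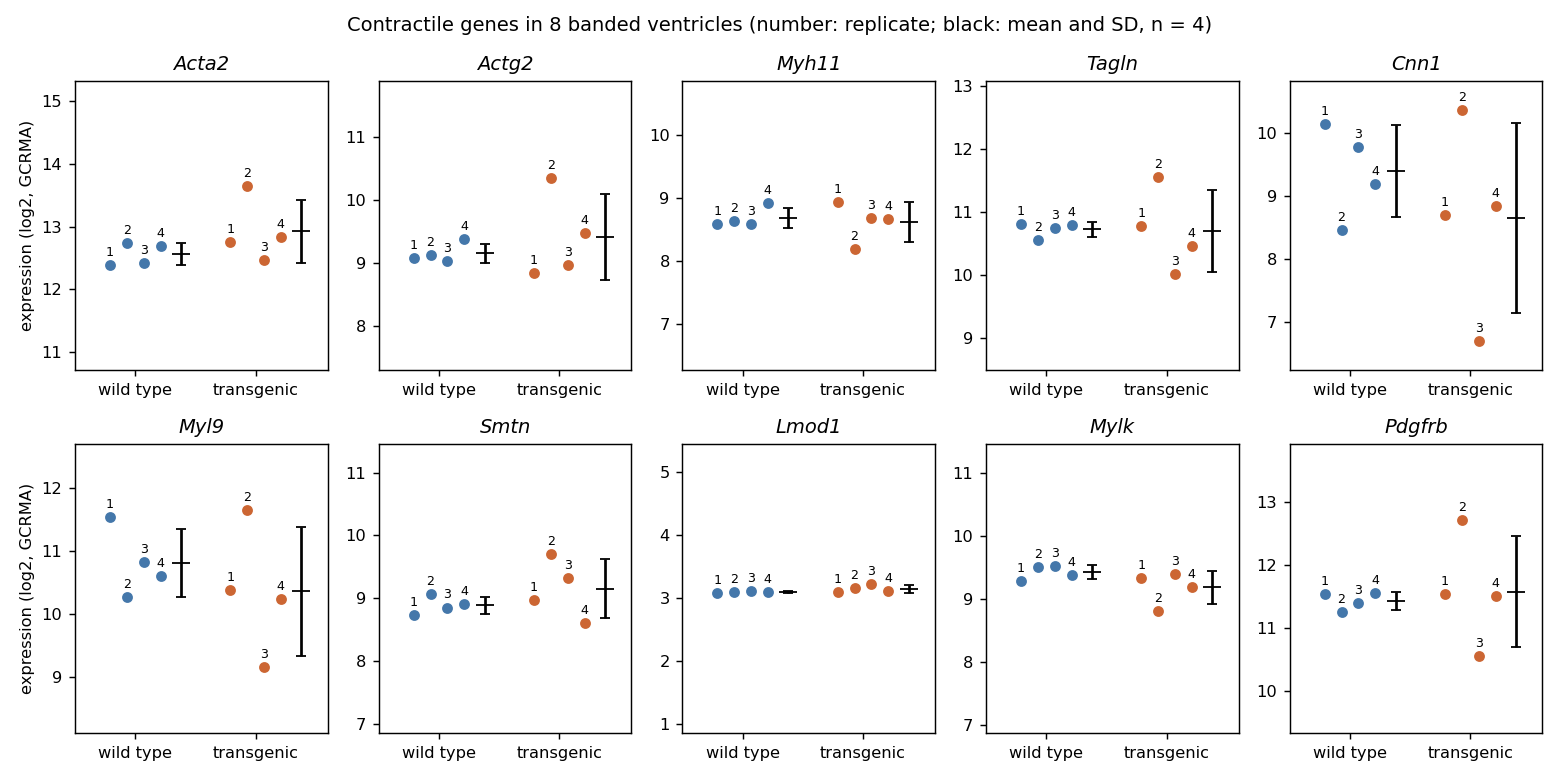
Log2 expression of the 10 contractile genes in each array, with replicate numbers beside the points and the mean and SD of each group in black (n = 4). In arrays labelled transgenic, replicates 2 and 3 lie far apart for Cnn1, Myl9, Tagln and Pdgfrb, and Cnn1 and Myl9 are also wide in wild type.

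Of the actins, Acta2, the smooth muscle alpha-actin by which myofibroblasts are usually recognised, read 12.76, 13.64, 12.46 and 12.84 (log2) in transgenic replicates 1 to 4. In wild-type replicates 1 to 4 it had 12.39, 12.74, 12.43 and 12.69. Replicates 1, 2 and 4 labelled transgenic lay above every wild-type array, and replicate 3 lay among them. The mean was 12.93 ± 0.50 in the former and 12.56 ± 0.18 in the latter group (SD, n = 4 each). Acta2 was thus 1.29-fold higher in mean, or 0.36 on the log2 scale (SE 0.26, 95% confidence interval -0.23 to 0.96), which was within the spread of the arrays labelled transgenic. It missed the threshold in limma (adjusted p = 0.813) and in an exact two-sided permutation test (p = 0.143). With transgenic replicate 2 left out the difference was 0.13, and with replicate 3 left out it was 0.52. Centring each array on its median took transgenic replicate 1 back among the wild-type arrays.

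Actg2, the smooth muscle gamma-actin of visceral and some vascular muscle, had 8.83, 10.35, 8.97 and 9.48 in transgenic replicates 1 to 4 and 9.08, 9.13, 9.03 and 9.38 in wild type. Replicates 1 and 3 lay below all wild-type arrays, and replicates 2 and 4 above all of them, replicate 2 by over 2-fold from the wild-type mean. With each array centred on its median, replicate 4 lay among the wild-type arrays. The difference of 0.25 (SE 0.32; limma adjusted p = 0.814) became -0.06 without transgenic replicate 2. Actg2 was the member nearest to Acta2 in its pattern, with a root mean square distance of 0.20 on the log2 scale between the centred values of the 8 arrays, against 0.38 for the deviation of Acta2 from its own mean.

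The myosin heavy chain Myh11, the member most restricted to mature smooth muscle, varied little. Its values were 8.94, 8.18, 8.68 and 8.67 in transgenic replicates 1 to 4 and 8.58, 8.64, 8.58 and 8.91 in wild type. Replicate 2 labelled transgenic was the lowest of the 8 arrays and replicate 1 the highest, with wild-type replicate 4 just beneath it, an order that turned round when each array was centred on its median. The mean was 8.62 ± 0.32 in the former and 8.68 ± 0.16 in the latter group (SD, n = 4 each), and the difference of -0.06 was smaller than either SD (95% confidence interval -0.51 to 0.39; limma adjusted p = 0.91). The sign rested on single arrays, at 0.08 once transgenic replicate 2 was left out and 0.02 once wild-type replicate 4 was. The highest array stood 1.69-fold above the lowest, against 12.8-fold for Cnn1.

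Mylk, the kinase of the light chain, was the member nearest to Myh11 in its pattern, at a root mean square distance of 0.18, little under the 0.22 by which Myh11 deviated from its own mean. It had 9.34, 8.81, 9.40 and 9.18 in transgenic replicates 1 to 4 and 9.29, 9.51, 9.53 and 9.39 in wild type. Transgenic replicates 2 and 4 lay below all wild-type arrays. The difference of -0.24 (SE 0.18, 95% confidence interval -0.65 to 0.16) missed the threshold (adjusted p = 0.813 in limma, p = 0.143 by exact permutation), and it was -0.12 without transgenic replicate 2. A second Mylk probe set above the filter gave a difference of 0.04, with means of 7.25 and 7.21, so the probe sets of this gene did not share a direction. Mylk was 1 of 4 members below all wild-type arrays in transgenic replicate 4 (Tagln, Myl9, Smtn and Mylk), a position that 9.12% of all genes took.

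Cnn1 and Myl9 had the widest spread of the set. Cnn1, calponin 1, which binds actin and restrains the myosin ATPase, had 8.71, 10.37, 6.70 and 8.84 in transgenic replicates 1 to 4. In wild-type replicates 1 to 4 it had 10.14, 8.47, 9.78 and 9.19. The wild-type arrays alone spanned 3.19-fold, and transgenic replicates 1 and 4 lay inside that span, with replicate 2 above it and replicate 3 below. The mean was 8.66 ± 1.51 in the former and 9.40 ± 0.73 in the latter group (SD, n = 4 each). Cnn1 was thus 1.67-fold lower in mean, by -0.74 on the log2 scale (SE 0.71, 95% confidence interval -2.37 to 0.88), which was within the spread (limma adjusted p = 0.813; exact permutation p = 0.486). With transgenic replicate 2 left out it was -1.31, with replicate 3 left out it was -0.09, and with both left out it was -0.62. Leaving out wild-type replicate 1 gave -0.49.

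Myl9, the regulatory light chain that Mylk phosphorylates, had 10.38, 11.66, 9.15 and 10.23 in transgenic replicates 1 to 4 and 11.54, 10.27, 10.82 and 10.60 in wild type. Replicates 3 and 4 labelled transgenic lay below every wild-type array, replicate 1 lay among them, and replicate 2 stood above the highest, wild-type replicate 1, by little. The difference was -0.45 (SE 0.50, 95% confidence interval -1.60 to 0.69; limma adjusted p = 0.813; exact permutation p = 0.429). Without transgenic replicate 2 it was -0.89 with an unadjusted limma p of 0.0489 and an adjusted p of 0.945, and without replicate 3 it was -0.05. It was -0.21 without wild-type replicate 1. Of the members tested, Myl9 in that setting was the only one with an unadjusted p under 0.05 in any alternative tried.

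**Figure D2:**
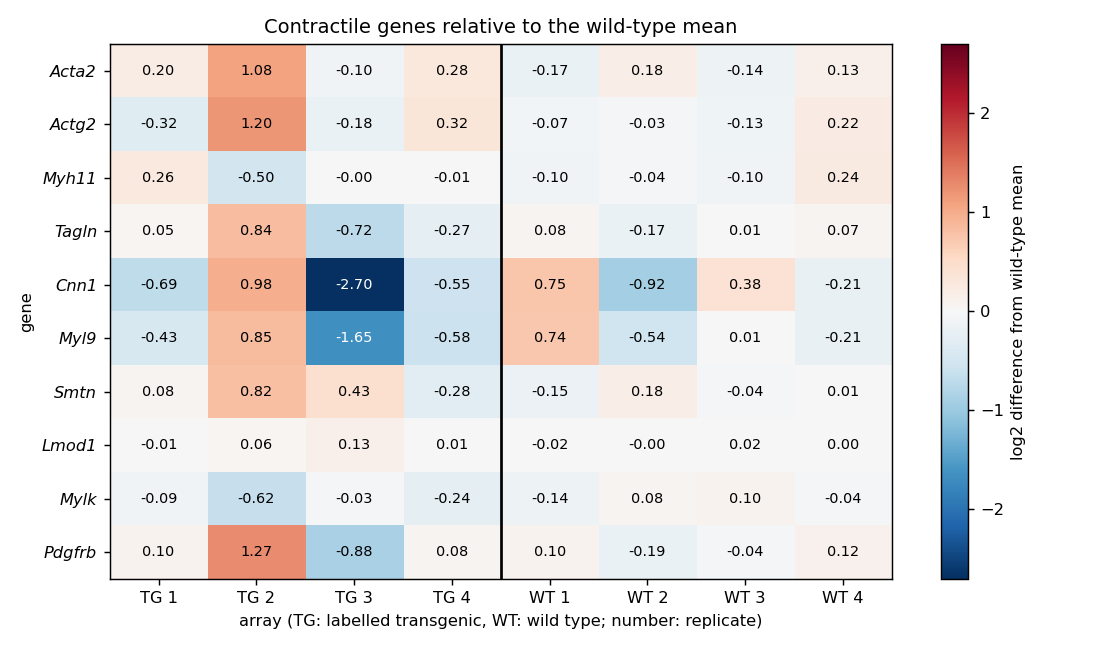
Difference of each contractile gene from its wild-type mean in each array (log2; red higher, blue lower), with the value in each cell. Transgenic replicate 3 reaches -2.70 for Cnn1 and -1.65 for Myl9, and wild-type replicate 1 reaches 0.75 and 0.74 for the same genes.

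The spread of Cnn1 and Myl9 was present among wild-type hearts, without any array labelled transgenic. Of all genes tested, 1.41% had a larger wild-type SD than Cnn1 and 3.76% a larger one than Myl9. For the other 7 members tested this share was 52.1% to 78.9%. Cnn1 and Myl9 were also the 2 members whose wild-type arrays spanned over 1 log2 unit, as 7% of all genes did. Both put the wild-type arrays in the same order, replicate 1 highest, then 3, then 4, and replicate 2 lowest, an order found in 8.44% of all genes and noticed after the values were seen. Of the other smooth muscle cytoskeleton genes, Vcl, Synpo2, Tns1 and Pdlim7 (4 of 14) had it, and so did 4 of the 15 genes of light chain phosphorylation, among them Myh10, Ppp1r12b and Prkg1. It was also found in 2 of 6 elastic artery genes, 1 of 19 regulators and 1 of 10 ventricular myocyte markers. The pericyte, activated fibroblast, resident fibroblast, endothelial, atrial and macrophage lists had 0 genes with it. At a share of 8.44% of all genes, counts of 0 or 1 in lists this short do not set them apart from other genes.

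Genes with a pattern close to these 2 members, chosen after their values were seen, included another actin-bound protein. Nearest to Myl9 was Pdlim7, a PDZ and LIM protein of actin filaments, at a root mean square distance of 0.17, against 0.74 for the deviation of Myl9 from its own mean. Pdlim7 had 10.16, 11.53, 9.12 and 10.32 in transgenic replicates 1 to 4 and 11.30, 9.74, 10.53 and 10.41 in wild type, so it too was lowest in transgenic replicate 3 and high in wild-type replicate 1. Map6, S100a6, Pcolce, an enhancer of procollagen processing, and Fbln5, an elastic fibre protein, followed at 0.27 to 0.28. Nearest to Cnn1 were Tspo, the mitochondrial translocator protein, at 0.28, then Svep1, Wfdc18, Ccn5 and Map6 at 0.34 to 0.37, against 1.09 for the deviation of Cnn1 from its own mean. The distance between Cnn1 and Myl9 themselves was 0.40.

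**Figure D3:**
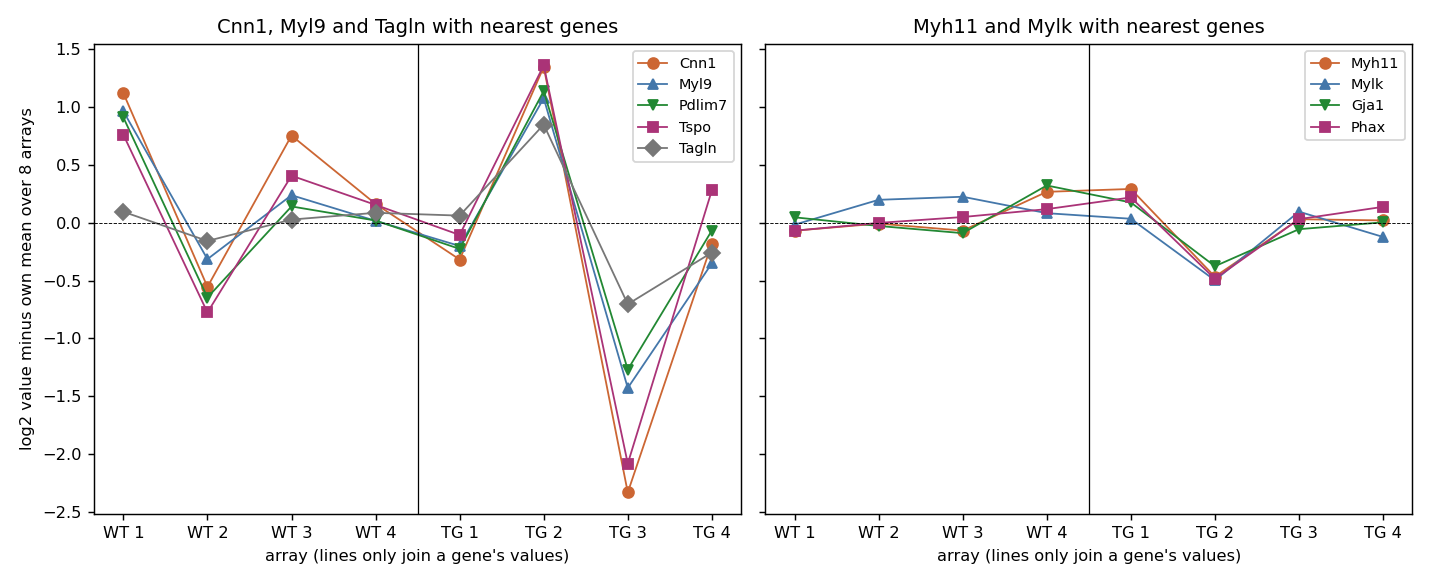
Log2 values minus each gene's own mean over the 8 arrays, for Cnn1, Myl9 and Tagln with Pdlim7 and Tspo (left) and for Myh11 and Mylk with Gja1 and Phax (right). Genes on the left peak in transgenic replicate 2 and are lowest in replicate 3, whereas those on the right are lowest in replicate 2.

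By the same distance, fixed for Acta2 and Myh11, the genes nearest to Acta2 were Nip7, Cinp, Tstd2, Mapk12 and Tmem179b, at 0.09 to 0.10. Each was highest in transgenic replicate 2, the array in which 52% of all genes lay above the 4 wild-type arrays. Nearest to Myh11 were Gja1, which encodes connexin 43 of gap junctions, Phax, Zfp869, H3f3a and Shmt1, at 0.08 to 0.10, and each was lowest in that same array. All these distances were taken over 8 arrays.

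Tagln, transgelin, an actin-bundling protein of smooth muscle and an early myofibroblast gene, had 10.78, 11.56, 10.01 and 10.46 in transgenic replicates 1 to 4. Its wild-type values were 10.81, 10.56, 10.74 and 10.80, the second tightest wild-type SD of the 9 members tested, at 0.12. Transgenic replicates 3 and 4 lay below all wild-type arrays and replicate 2 above them. The group difference was -0.03 (SE 0.31; limma adjusted p = 0.981), and its sign rested on single arrays. It was -0.31 without transgenic replicate 2, 0.20 without replicate 3, 0.06 without replicate 4 and 0.002 without wild-type replicate 1.

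Smtn, smoothelin, found in contractile smooth muscle, had 8.97, 9.71, 9.32 and 8.61 in transgenic replicates 1 to 4 and 8.74, 9.07, 8.85 and 8.90 in wild type. It was the 1 member that lay above all wild-type arrays in transgenic replicate 3. The difference of 0.26 (SE 0.24; limma adjusted p = 0.813) was 0.08 without transgenic replicate 2 and -0.10 without both replicates 2 and 3.

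Lmod1, leiomodin 1, a nucleator of actin filaments in smooth muscle, gave between 3.09 and 3.23 in arrays labelled transgenic and between 3.08 and 3.12 in wild type. All 8 values lay below the level of 5 required for testing, near the common low level to which GCRMA pulls probe sets without signal, so no direction is read from its difference of 0.05 (exact permutation p = 0.229). The other probe sets of Acta2 and Myh11 and the third of Mylk also lay below that level in every array.

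Pdgfrb, the growth factor receptor of mural cells, had 11.53, 12.71, 10.55 and 11.51 in transgenic replicates 1 to 4 and 11.54, 11.25, 11.39 and 11.55 in wild type. Replicates 1 and 4 lay within the wild-type range, replicate 2 stood over 2-fold above the wild-type mean and replicate 3 stood 0.88 log2 units beneath it. The difference was 0.14 (SE 0.40; limma adjusted p = 0.898), with -0.23 without transgenic replicate 2 and 0.48 without replicate 3. A second probe set of Pdgfrb gave 9.74, 10.57, 8.47 and 9.32 against 9.56, 9.43, 9.24 and 9.20, a difference of 0.17. Both probe sets were thus highest in transgenic replicate 2 and lowest in replicate 3.

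**Figure D4:**
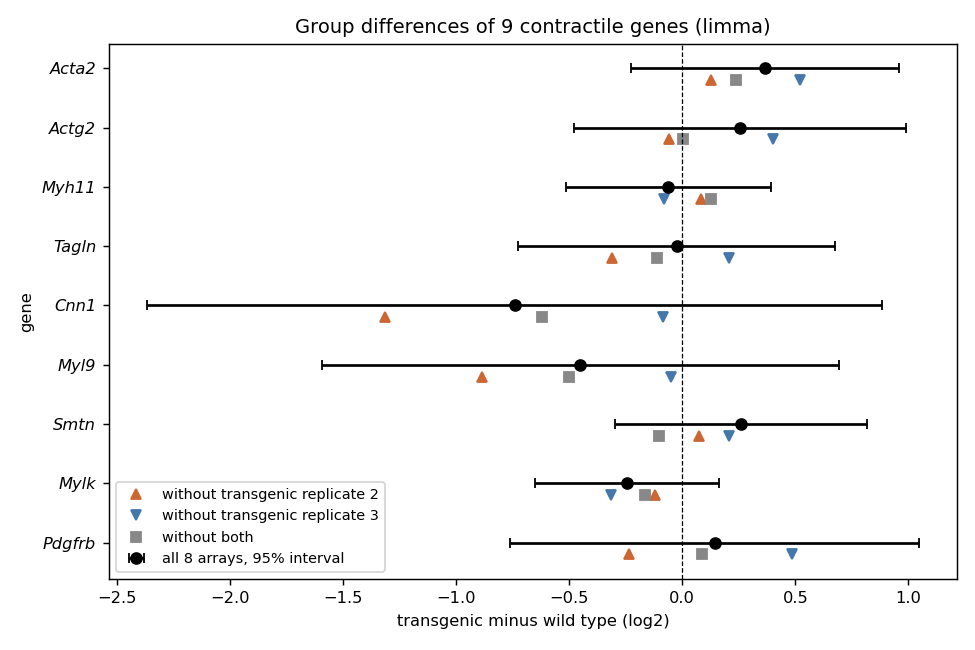
Difference of the 9 tested genes, transgenic minus wild type on the log2 scale, with limma's 95% confidence interval over 8 arrays (black) and the difference without transgenic replicate 2, without replicate 3 and without both. All 9 intervals span 0, and the sign of Actg2, Myh11, Tagln, Smtn and Pdgfrb changes in at least 1 of the 3 settings.

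Array by array, the members lay on both sides of the wild-type range. In transgenic replicate 2, 7 of 9 members were above all 4 wild-type arrays (52% of all genes) and 2, Myh11 and Mylk, were below (33.5%). Acta2, Actg2 and Pdgfrb were over 2-fold above the wild-type mean there (17.8%). In transgenic replicate 3, 5 members were below all wild-type arrays, Actg2, Tagln, Cnn1, Myl9 and Pdgfrb, beside 33.5% of all genes, and Smtn was above (29.8%). Cnn1 and Myl9 were over 2-fold below the wild-type mean there, as 6.25% of genes were. Transgenic replicate 1 put Acta2 and Myh11 above (19.8%) and Actg2 below (14.1%), and replicate 4 put Acta2 and Actg2 above (26.5%).

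Marker lists of other cells also stood apart in these arrays. In transgenic replicate 3, all 15 markers of activated fibroblasts lay below the 4 wild-type arrays, with a median of -3.30 from the wild-type mean. All 6 measured genes of the elastic artery list did too, with a median of -2.06. Which cells of the ventricle expressed them was not measured. The share of all genes tested in that position was 33.5%. The mean log2 level of the activated fibroblast list was 8.78 to 11.84 in arrays labelled transgenic and 11.78 to 12.26 in wild type. That of the elastic artery list was 9.22 to 12.25 and 11.06 to 11.73. In that array the median of the pericyte list lay at 0.20, that of the endothelial list at 0.04, that of the resident fibroblast list at -0.52 and that of the contractile genes at -0.18. The macrophage and atrial lists lay at -1.06 and 0.85. Their part in the low Cnn1, Myl9, Tagln and Pdgfrb values of this array was not tested.

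In transgenic replicate 2, the medians of the pericyte, endothelial and elastic artery lists lay at 1.06, 0.82 and 0.80, beside 0.85 for the contractile genes. The macrophage and atrial lists were as high there, at 0.90 and 0.87. Activated and resident fibroblasts lay at 0.03 and -0.22, and ventricular myocytes at -0.09. Medians this near 0 do not mean unchanged lists. Among 15 activated fibroblast markers, 6 lay above all wild-type arrays there and 5 below. Resident fibroblasts had 3 of 8 above and 4 below, and ventricular myocytes 0 of 10 above and 6 below. Of all genes tested, 52% lay above the 4 wild-type arrays in this array. The mean log2 level of the pericyte list was 9.03 to 9.59 in arrays labelled transgenic and 8.89 to 9.30 in wild type, and that of the endothelial list 9.29 to 9.67 and 9.09 to 9.56. Neither list was high throughout in transgenic replicate 2. Of the 9 pericyte markers tested, 7 lay above all wild-type arrays there and 2 below, among them Rgs5 at -1.61 from the wild-type mean. Of the 10 endothelial markers, 7 lay above and 3 below. Below all wild-type arrays lay 33.5% of all genes tested. Of the pericyte markers, Anpep and Cox4i2 did not pass the filter. The part of these lists in the high Acta2, Actg2 and Pdgfrb values of this array was not tested either.

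**Figure D5:**
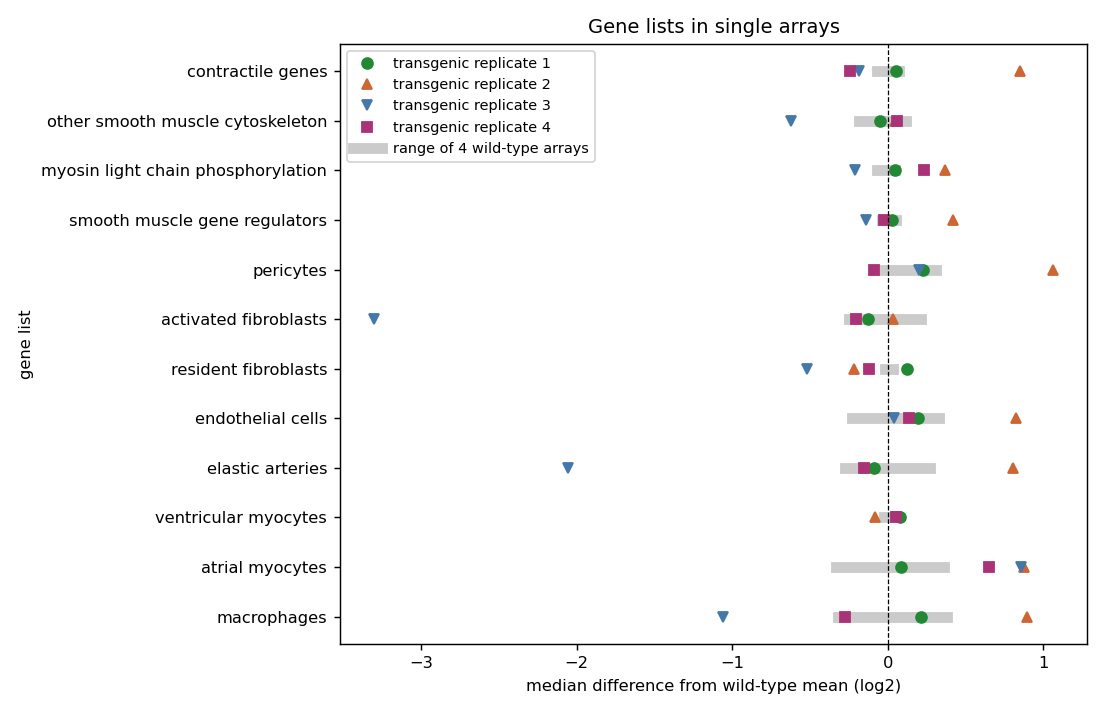
Median difference from the wild-type mean (log2) of the contractile genes and of 11 other lists in each array labelled transgenic, with the range of the 4 wild-type arrays in grey. Transgenic replicate 3 is lowest for the activated fibroblast list, at -3.30, and for the elastic artery list, at -2.06, and the contractile genes lie at 0.85 in replicate 2.

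Of the other genes of the smooth muscle cytoskeleton, 0 of 14 had an unadjusted limma p under 0.05, and 6 had a higher and 8 a lower mean in arrays labelled transgenic, with a median of -0.08, or 0.04 without transgenic replicate 3. Over all genes tested, the mean was higher in 57% and lower in 43%, and 1.22% and 0.375% had such a p on those sides. Cald1, caldesmon, which blocks myosin on actin, differed by -0.63, with 11.23, 10.02, 10.52 and 11.38 in transgenic replicates 1 to 4 and 11.24 to 11.66 in wild type, and by -0.12 without transgenic replicates 2 and 3. Csrp1, a LIM protein of smooth muscle, differed by 0.52, or by 0.07 without transgenic replicate 2. Lpp and Fermt2, of cell adhesions, differed by -0.22 and -0.24, with Lpp at -0.07 without replicate 3 and Fermt2 at 0.02 without replicate 2. In transgenic replicate 3, 11 of the 14 genes lay below all wild-type arrays, where 33.5% of all genes tested did. Wild-type means in this list ran from 7.92 for Synm to 15.04 for Tpm1, the latter at the level of ventricular myocyte markers. The list may thus read cells other than smooth muscle, which was not tested.

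Genes that set the phosphorylation of the myosin light chain likewise had 0 of 15 members at an unadjusted limma p under 0.05, with 7 higher, 8 lower and a median of -0.03, or 0.10 without transgenic replicate 3. Ppp1r14a, an inhibitor of myosin phosphatase in smooth muscle, differed by 0.82, with 6.18, 7.68, 5.47 and 6.13 in transgenic replicates 1 to 4 and 5.45, 5.77, 5.78 and 5.16 in wild type. Replicates 1, 2 and 4 were above all wild-type arrays (limma adjusted p = 0.813; exact permutation p = 0.0857), and without replicate 2 the difference was 0.39. Ppp1r12c, a phosphatase subunit, differed by 0.32, or by 0.12 without replicate 2. Myh10, a nonmuscle myosin, differed by -0.36, but by -0.14 without replicate 3 and by 0.22 without both.

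Among regulators of these genes, 9 of 19 had a higher and 10 a lower mean, with a median of -0.004, and 1 had an unadjusted limma p under 0.05. Leaving out transgenic replicate 2 put this median at -0.05, and leaving out replicate 3 put it at 0.05. The gene was Hey1, a relative of Hey2, at 0.59 (unadjusted p = 0.0412, adjusted p = 0.813), with 6.61, 7.40, 7.47 and 7.33 in transgenic replicates 1 to 4 and 6.59, 6.97, 6.26 and 6.63 in wild type. Tgfbr1, a receptor of TGF-beta, which drives myofibroblast formation, differed by -0.58, or by -0.24 without transgenic replicates 2 and 3. Smad3, its downstream transcription factor, differed by 0.46, or by 0.22 without replicate 2. Tead1, a factor of muscle promoters, read 8.24 in transgenic replicate 2 and 10.93 or more elsewhere, and its difference of -0.78 was -0.09 without that array.

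Of the lists of other cells, the 15 activated fibroblast markers were all lower in mean, with a median of -0.85, or -0.07 without transgenic replicate 3. Beside this and the counts that follow, 57% of all genes tested were higher and 43% lower in mean. An unadjusted limma p under 0.05 was reached by 1.22% on the higher and 0.375% on the lower side. Lox, which cross-links collagen, and Fap had an unadjusted limma p under 0.05, with differences of -1.95 and -0.83. These were -1.12 and -0.50 without transgenic replicate 3, and -0.53 and -0.29 without replicates 2 and 3. Of 8 resident fibroblast markers 5 were lower, with a median of -0.12, or -0.06 without transgenic replicate 3, and Pdgfra differed by -0.37, or by -0.18 without replicates 2 and 3. Of 9 pericyte markers 7 were higher, with a median of 0.32, or 0.07 without transgenic replicate 2, and Kcnj8, a potassium channel of pericytes, differed by 0.58, or by 0.36 without that array. Rgs5, a signalling regulator abundant in pericytes, differed in the other direction, by -0.46, and by -0.08 without that array. Of 10 endothelial markers 9 were higher, with a median of 0.29, which became 0.12 once transgenic replicate 2 was left out. The 6 elastic artery genes were lower in mean, with a median of -0.35, but 0.19 without transgenic replicate 3. The atrial list had 4 of 5 higher, with a median of 0.64, or 0.41 without transgenic replicates 2 and 3, and Myl7 and Stard10 at an unadjusted limma p under 0.05. The macrophage list had 5 of 7 lower, with a median of -0.09 that was -0.28 without transgenic replicate 2 and 0.28 without replicate 3. No gene of any list passed with adjustment over all genes.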

How the data were processed

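The authors deposited log2 expression values for 45101 probe sets on 8 arrays, and the submitters' processing notes name GCRMA, with no version. GCRMA corrects each probe's background by base composition, normalizes by quantiles and summarizes probe sets, which compresses low values. Precision is limited by the number of arrays, which have no read depth.

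The platform annotation gave 1 symbol for 34958 probe sets. Each gene was read from 1 probe set, that of highest mean across the 8 arrays, and genes above a log2 value of 5 in at least 4 arrays, whatever their group, were tested (9604). Groups come from sample titles. Transgenic minus wild type was fitted with limma 3.58.1 in R 4.3.3 without a block, with Benjamini-Hochberg adjustment over all genes tested. Single members also got an exact two-sided permutation test over the 70 splits. The fit was tested on simulated data. Members, lists and alternatives were chosen with earlier results of these data known. Named genes were all members, up to 4 genes with the smallest p of each list, and the 5 genes nearest to Acta2 and to Myh11. Genes nearest to Cnn1 and Myl9, and those sharing their order of wild-type arrays, were named after values were seen. A gene that this rule picked from the light chain list is not reported here. Promoter sequences come from RefSeq (GRCm38.p6).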

Additional observations from a re-analysis of the deposited data

How the results depend on the processing

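All 9 members tested stayed outside the threshold in each alternative that tested them, with adjusted p between 0.321 and 1 at the smallest per setting. The alternative without probe sets of suffix _x_at, _s_at or _a_at tested 6 members. Acta2, Actg2 and Smtn were left out of it, as only such a probe set read them above a log2 value of 5. Whether their values are particular to each gene was not tested. Of 159 differences under alternatives, 148 kept their sign. Many of these could not have changed it. Altering only the filter or the variance prior of limma, or adding the replicate block, left every difference as it was. So did averaging probe sets for a member with a single one. Leaving out single arrays gave -0.060 to 0.45 for Actg2 (negative without transgenic replicate 2), -0.17 to 0.083 for Myh11 (positive without transgenic replicate 2 and wild-type replicate 4), -0.31 to 0.20 for Tagln (positive without transgenic replicates 3 or 4 or wild-type replicate 1) and -0.23 to 0.48 for Pdgfrb (negative without transgenic replicate 2). With array weights Actg2 was at -0.27 and Myh11 at 0.16, and without transgenic replicates 2 and 3 Myh11 was at 0.13 and Smtn at -0.10. The cause was not tested. Array weights gave transgenic replicates 1 to 4 weights of 6.61, 0.0519, 0.362 and 0.961, so the weighted transgenic mean leaned mostly on replicate 1. In that setting 1 gene, Inmt, and no member passed, and 1528 genes had an unadjusted limma p under 0.05. These counts therefore mainly set 1 transgenic array against wild type. With the replicate block 0 genes passed and 147 had an unadjusted p under 0.05, against 153 in the fit reported. The replicate numbers carry no stated pairing, so they were not taken as pairs. Deviations of same-numbered arrays from their group means correlated at 0.30, -0.01, -0.33 and 0.20. These values cannot exclude a pairing, as transgenic replicate 2 enters every transgenic deviation. Without the filter, transgenic replicate 3 had 2 members above all wild-type arrays in place of 1, the added one being Lmod1. With median centring transgenic replicate 1 had 0 above in place of 2, and replicate 4 had 1 in place of 2. Genes of the other lists at an unadjusted p under 0.05 numbered 5, or 3 without the filter, and 1 to 11 when single arrays were left out.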
